A study of Drosophila melanogaster with 4 samples.

Results

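The data map where CG8478, a protein of Drosophila melanogaster, sits on the genome of S2-DRSC, a male cell line derived from late embryos, by ChIP-seq. The peaks described here are those on the left arm of chromosome 2, called 2L. They were taken as every entry of the deposited peak list that is placed on 2L, which gave 383 of 3284 peaks in all, or 13.0% of the 2938 peaks on the 6 chromosome arms. The series holds 2 ChIP libraries made with the rabbit polyclonal antibody KW3-CG8478-D1 and 2 input libraries of unprecipitated DNA, all from this 1 line. Fixation was in 1.8% formaldehyde for 15 minutes, per the labels' protocols. The list gives 1 start, 1 end and 1 score per peak and nothing per library, so read depth and the spread between replicates are unknown here. The score is the authors' own value per peak, and which statistic of the peak caller it holds is not given in the sources used here. All positions are 1-based, on FlyBase release 5.

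In ChIP-seq, chromatin is fixed and sheared, the fragments bound by a protein are precipitated with an antibody, and stretches where their reads pile up are called as peaks. The antigen used to raise this antibody carries a zinc finger of the C2H2 type, a small fold held by a zinc ion that many transcription factors use to read DNA. A Drosophila autosomal arm runs from a telomere, which is built of retrotransposon arrays followed by repeated subtelomeric DNA, through gene-rich euchromatin to heterochromatin around the centromere, where transposable elements become dense. On 2L positions count from the telomere, so low positions are distal and high positions are proximal. The sequence and genes under the peaks were not analysed here, since no genome or annotation of release 5 was used.

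The 2L peaks were a mix of many narrow, low-scoring calls and few wide, high-scoring ones. Scores on 2L ran from 6.50 to 194, with a median of 15.0 and quartiles of 10.6 and 28.6. The other arms together had a median of 13.8, with quartiles of 10.3 and 23.4. The median width was 427 bp on 2L, with quartiles of 271 and 705 bp, and 408 bp on the other arms. A score of at least 50, used here for a strong peak, was reached by 36 peaks, 9.40% of those on 2L (Wilson 95% interval 6.87 to 12.7%), beside 7.98% on the other arms (6.995 to 9.10%). The intervals overlap. A score of at least 100 was reached by 6 peaks on 2L, 1.57% (0.72 to 3.38%), and by 68 on the other arms, 2.66% (2.10 to 3.36%). Intervals on shares and densities cover counting error only, peaks are not replicates, and none of the differences between 2L and other arms was tested.

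**Figure D1:**
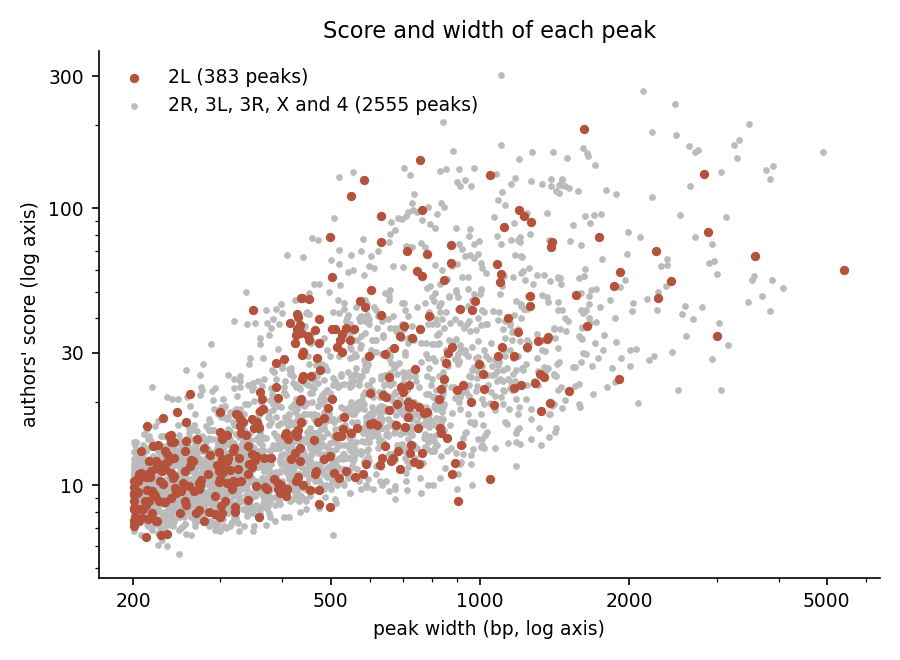
Each point is 1 peak, with its width in bp on the x axis and the authors' score on the y axis, both log axes, for 2L (383 peaks) and for the arms 2R, 3L, 3R, X and 4 (2555 peaks). The 2L peaks lie within the cloud of the other arms, from a width of 201 bp up to the widest peak of 5423 bp, and a small group of them stands at widths near 430 bp and scores between about 30 and 47, described below as pairs.

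Width and score rose together along the 2L peaks, with a Spearman's rho of 0.74 over 383 peaks (0.76 over the other arms). Both values come from the same call, so the relation is a description. Among the 96 lowest-scoring peaks, up to 10.55, the median width was 254 bp and these included all 11 peaks of 201 bp, the narrowest width. Among the 96 highest-scoring, from 28.75 up, the median width was 757.5 bp, and 35 of the 48 peaks of 1 kb or more were among them. The 5 widest peaks were 672 to 6094 (5423 bp, score 59.96), 5292010 to 5295589 (3580 bp, 67.3), 478724 to 481734 (3011 bp, 34.65), 1665191 to 1668070 (2880 bp, 81.7) and 12009759 to 12012587 (2829 bp, 133). Only the last of them was also among the 6 highest scores of the arm. The lowest scores on 2L were 6.50 at 22178490 to 22178701, 6.59 at 8684002 to 8684229, 6.66 at 502042 to 502275, 7.13 at 6082939 to 6083139 and 7.39 at 108892 to 109169. Of these, 4 lay within 10 kb of another peak, and the one at 6082939 lay alone, as did 25.3% of all 2L peaks.

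The arm held fewer peaks for its length than the others. Between the first and last peak, the density of 2L was 17.1 peaks per Mb (95% interval 15.5 to 18.9, exact Poisson), and that of the other arms together was 26.6 (25.6 to 27.6), with 21.2 on X (19.3 to 23.2) as the next lowest. The peaks covered 222 kb, or 0.99% of that stretch of 2L, and 1.54% on the other arms. The arm was also the lowest when peaks were set against genes. In the RefSeq table of Release 6, used only to count genes per arm, 2L has 2655 protein-coding genes, which gave 14.4 peaks per 100 genes on 2L (13.0 to 15.9), against 22.7 on the other arms (21.8 to 23.6) and 20.3 on 3L (18.6 to 22.1) as the next lowest. The intervals above treat each peak as separate, whereas counts varied more between 1 Mb windows than counting error gives. On 2L the variance over whole 1 Mb windows was 14.4 times the mean. These windows held 16.9 ± 15.6 peaks on 2L and 20.8 ± 23.2 on X (mean ± SD, 22 windows each). The copy number of the arms in this cell line was not measured in these values, and its part in the density was not tested.

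Over 5 segments, peak density fell off from the distal to the proximal part of the arm, with a rise again at the end. It was 25.8 peaks per Mb in the first 5 Mb (21.5 to 30.7), 20.6 from 5 to 10 Mb (16.8 to 24.98), 14.2 from 10 to 15 Mb (11.1 to 17.9) and 7.20 from 15 to 20 Mb (5.04 to 9.97). From 20 Mb to the last peak it was 18.6 per Mb (13.5 to 24.96). The fall leaned on 2 windows of 1 Mb and was not steady between windows. The first Mb held 61 of the 129 peaks up to 5 Mb. The window from 8 to 9 Mb held 55 of the 103 peaks from 5 to 10 Mb. Cut midway to the last peak, the distal side of the arm held 242 peaks, 63.2%, and the proximal side held 141. Both of these windows lay on the distal side. Scores did not follow the order of density, since their medians in the 5 segments were 16.0, 13.3, 13.6, 16.5 and 18.0. The share of peaks in large clusters, defined below, was 59.7% in the first 5 Mb, then 43.7% and 25.4%. It was 0% of 36 peaks from 15 to 20 Mb, which allows a share of up to 8.33% (3 counts of the total), and 29.5% beyond. Clusters are defined by a fixed gap, so this share depends on density and is not a separate result.

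**Figure D2:**
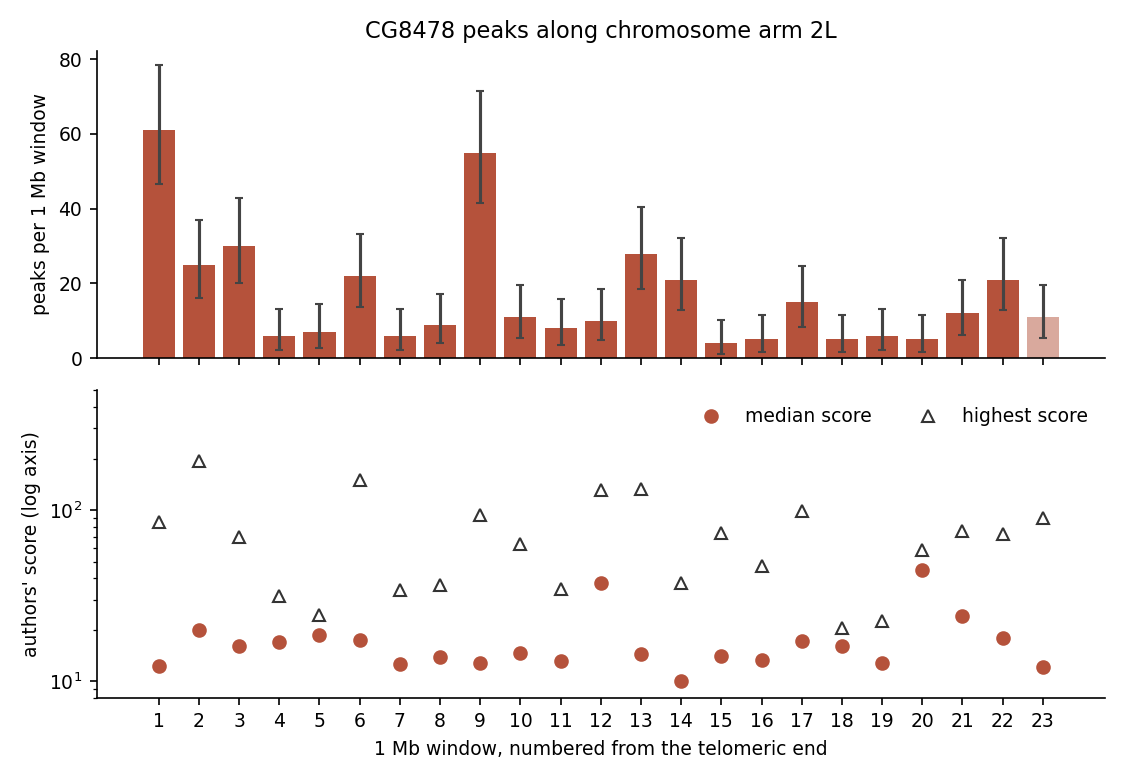
The upper panel shows the number of peaks in each 1 Mb window of 2L, numbered from the telomeric end, with exact Poisson 95% intervals, and the pale bar is the window that the last peak cuts short. The lower panel shows the median and highest score of each window on a log axis. The first window (61 peaks) and the ninth (55 peaks) stand above the rest, and the highest median scores are in windows 12 and 20.

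Crowding rested on a few stretches. Whole 1 Mb windows, of which there were 22, held 16.9 ± 15.6 peaks (mean ± SD over windows), with a median of 10.5 and a range from 4 to 61. The first Mb held 61 peaks and the window from 8 to 9 Mb held 55, and these 2 windows together had 31.2% of the 372 peaks in whole windows. Without them, the rest of the arm had 13.1 peaks per Mb (11.6 to 14.8). At the other end of the range, 11 windows with at most 10 peaks shared 71 peaks, 19.1%. The emptiest was that from 14 to 15 Mb with 4 peaks. Some windows with few peaks had high scores. The 5 peaks from 19 to 20 Mb had a median score of 44.4 and the 10 from 11 to 12 Mb one of 37.3, the highest medians of the arm. The first Mb had 12.2 and the window from 8 to 9 Mb had 12.8. All other windows with at most 10 peaks had medians from 12.5 to 18.5, beside 15.0 over all 2L peaks.

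At the finer scale of 100 kb, 110 of 223 windows of 2L (49.3%) had no peak, against 401 of 968 (41.4%) on the other arms together. Single arms differed, with 61.5% on 4, 52.0% on X, 45.9% on 3L, 36.6% on 3R and 30.3% on 2R. Of the 2L windows, 41 had exactly 1 peak. Only 6 windows had 10 peaks or more, and they held 94 peaks, 24.9% of those in whole windows. Along the arm these windows were 0.1 to 0.2 Mb (21 peaks), 0.4 to 0.5 Mb (19), 1.6 to 1.7 Mb (12), 2.1 to 2.2 Mb (17), 8.7 to 8.8 Mb (15) and 13.5 to 13.6 Mb (10). So 4 of the 6 lay in the first 2.2 Mb. Their median scores ran from 11.05 to 18.3, and the highest score within them was 194 in the window at 1.6 Mb and 34.65 in that at 0.4 Mb.

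The telomeric end began with peaks almost at the first base of the assembled arm. The first peak spanned 137 to 606, with a score of 28.75. After 65 bp without a call, the second spanned 672 to 6094, scoring 59.96, and at 5423 bp it was the widest of all 3284 peaks. Its width was out of proportion to its score, since the 36 strong 2L peaks had a median width of 1088.5 bp and it ranked 213 in the whole list by score. Then 60.5 kb were free of peaks. The 2 others in the first 100 kb spanned 66623 to 67410 (score 40.7, 788 bp) and 72268 to 72540 (score 9.99, 273 bp). These 4 peaks covered 6.95% of the first 100 kb, against 0.99% over the arm, and 5423 of the 6954 bp belonged to 1 peak. Repeated DNA lies near telomeres, and how the authors' alignment placed reads that match several sites is not given in the sources used here.

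A dense block followed. Between 108892 and 183540, 21 peaks were called, most of them in 2 large clusters of 10 peaks each, at 108892 to 139848 and 159106 to 171702. Each had 1 strong peak among weak ones. In the first it was 128803 to 129919 (score 85.6, 1117 bp) and the next highest score was 22.2. In the second it was 160596 to 162332 (score 79.0, 1737 bp), beside 166029 to 167292 with 48.05. The medians of the clusters were 10.3 and 11.7. From there to 594750 the peaks came in small groups apart from the 21-peak cluster described next, and the peak at 594750 to 595496 (score 59.35) ended the distal block. The following 562 kb had no peak at all. All 61 peaks of the first Mb thus lay in its first 595496 bp.

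To describe crowded sites, neighbours no more than 10 kb apart were linked into chains, and chains with at least 5 members are called large clusters. On 2L there were 17 of them with 153 peaks, 39.9% of the arm's peaks (Wilson 95% interval 35.2 to 44.9%), against 50.7% on the other arms (48.8 to 52.7%). Single peaks, with none other inside 10 kb, made up 25.3% on 2L (21.2 to 29.9%) and 19.0% elsewhere (17.5 to 20.6%). Both shares depend on peak density, which was lower on 2L, since the 10 kb limit is fixed. The clusters spanned from 4.63 to 49.7 kb, with a median of 15.1 kb, and in sum only 1.52% of the arm. Of the 17, 12 lay in the first 10 Mb and 2 beyond 15 Mb. The share was 14.5% when only the 200 peaks at or above the median score of the whole list were kept, a filter that thins the peaks and so lengthens the gaps.

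Clusters differed in whether 1 peak led them. The highest score exceeded the next by more than 20 in 7 of 17 clusters and by less than 5 in 7 others. The strongest peak was the first or last of its cluster in 3 of 17 and inside it in the others, which have from 5 to 21 peaks. A strong peak was present in 6 clusters, while in 7 the highest score was below 25. Only the clusters at 1643480 and 5292010 had 2 strong peaks each. Over all 153 clustered peaks the median score was 12.5 (quartiles 10.3 and 19.5), and 5.23% were strong. Among the 97 peaks without a neighbour within 10 kb the median was 16.1 (11.25 and 34.5), and 17.5% were strong. On the other arms the same shares were 6.56% of 1296 clustered and 12.1% of 486 single peaks.

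The 5 clusters with the most peaks differed in make-up. The largest, at 472217 to 506665, had 21 peaks in 34.4 kb with a median score of 12.5 and none strong, led by a peak of 3011 bp at 478724 to 481734 with a score of only 34.65. The second, at 8672246 to 8718765, had 19 peaks in 46.5 kb, of which 8691007 to 8692108 scored 57.8 and no other more than 24.1. The third, at 1643480 to 1693192, had 12 peaks in 49.7 kb and opened with the strongest peak of the arm. The fourth, at 2160686 to 2179681, had 11 peaks in 19.0 kb, the highest of them at 24.5 and the next at 24.1. The fifth place was shared by the 2 clusters of 10 peaks near the telomere. Peaks filled from 14.4% to 45.8% of the length of these 6 clusters. The fullest of all large clusters was 2193360 to 2200620, where 6 peaks covered 75.1% of 7.26 kb around a peak of 69.8.

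**Figure D3:**
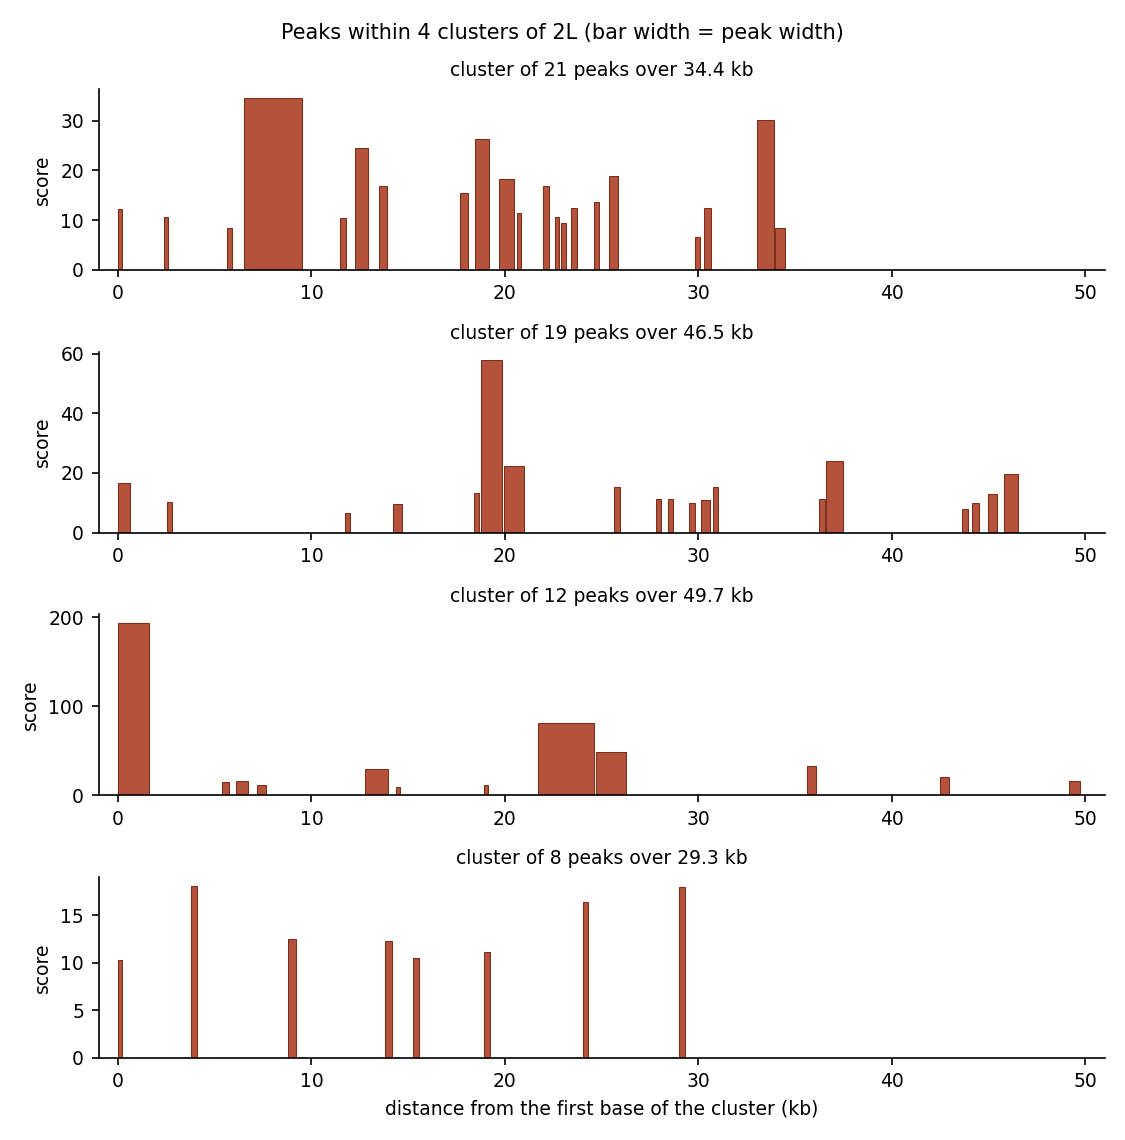
Each panel is 1 cluster of 2L, with distance from its first base in kb on the x axis and the authors' score on the y axis, and each bar is a peak as wide as the called region. The clusters of 21 and 12 peaks have their leading peak near the distal side and that of 19 peaks has it inside, while the 8 peaks of the lowest panel, from the proximal end, score between 10.3 and 18.1 and stand 3809 to 5111.5 bp apart once the fifth of them is set aside.

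The strongest peak of 2L lay at 1643480 to 1645101, scoring 194 over 1622 bp, and held rank 8 in the whole list. On its distal side 216 kb were free of peaks, and on its proximal side 11 further peaks of its cluster followed, among them 1665191 to 1668070 (score 81.7, 2880 bp). The next 2L peak, at 5460998 to 5461755, had 149.7 in only 758 bp and was alone, with 39.0 kb to its distal and 446 kb to its proximal neighbour. Next came 12009759 to 12012587 with 133 in 2829 bp, 11445592 to 11446638 with 131.5, 12586804 to 12587386 with 126 and 5403499 to 5404049 with 111. These 6 were the only 2L peaks above 100. Their widths ran from 551 to 2829 bp, so that a high score did not come with 1 typical width.

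Of ranks 7 to 15 on 2L, the peaks at 16485779 to 16486976 and 1972477 to 1973241 shared a score of 98.8. They were followed by 5306045 to 5307269 with 93.9 and by 8825174 to 8825804 with 93.8. Scores of 89.4 at 22168065 to 22169333, 85.6 and 81.7 at sites named above, 79.0 in the second telomeric cluster and 78.9 at 22024349 to 22024847 completed the 15. Chains of 1 peak held 6 of these 15 and large clusters held 5, so the strongest sites of the arm were found in both settings.

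The neighbours of strong peaks were counted within 10 kb. Of the 36, 17 had no other peak there, 12 had 1 to 3 and 7 had 4 or more. Among all 2L peaks 25.3% had none. Strong peaks were 9.40% of all 2L peaks, and whether they stood together less than this share gives was not tested. Of the 36, 5 had another strong peak within 10 kb. They formed 1 pair, 1970355 to 1971066 (score 69.9) and 1972477 to 1973241 (98.8), and 1 trio of broad peaks, 12003281 to 12004674 (75.65), 12005344 to 12007774 (54.6) and 12009759 to 12012587 (133), which covered 6654 bp of a stretch of 9307 bp. The score of a peak gave little sign of that of its neighbour. Across the 119 neighbouring pairs at most 1 kb apart Spearman's rho of their scores was 0.08, and it was 0.12 across the 166 pairs more than 10 kb apart. Pairs share peaks, so these values are descriptions only.

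A site was called isolated and strong when its score was at least 50 and no other peak lay within 50 kb on either side. There were 6, and they were spread over the whole arm. From distal to proximal they were 594750 to 595496 (score 59.35), 5092975 to 5093477 (56.4), 8825174 to 8825804 (93.8), 11516286 to 11517050 (57.0), 16422636 to 16423238 (50.6) and 22024349 to 22024847 (78.9). All were compact, between 499 and 765 bp wide, while the median of the 36 strong peaks was 1088.5 bp. The last had 125 kb to its distal and 109 kb to its proximal neighbour, and that at 8825174 had 89.2 and 119 kb. The site at 16422636 was just inside the score limit.

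The number of such sites depends on the limits. With 20 kb in place of 50 kb it was 15, which brought in 5460998 to 5461755 with its score of 149.7 and the neighbours 12586804 to 12587386 (126) and 12617837 to 12618619 (68.6), 30.45 kb apart. With a score of at least 30 it was 12. For isolation without a limit on score, the measures differed. The 37 peaks of any score with no other within 50 kb had a median score of 13.8 (quartiles 8.78 and 34.0), against 15.0 for the remaining 346. Strong peaks were 16.2% of the isolated ones (Wilson 95% interval 7.65 to 31.1%) and 8.67% of the others (6.14 to 12.1%), intervals that overlap. At closer range, the 96 highest-scoring peaks had a median distance of 4541 bp to the nearest other peak, and 33.3% of them had one within 1 kb (24.7 to 43.2%). The 96 lowest-scoring had a median of 637 bp and a share of 55.2% (45.3 to 64.8%). The peaks between were close to these. The 96 next above the lowest had 637 bp and 54.2%, and the 95 after those had 767 bp and 52.6%.

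A further pattern concerned peaks of middle score, some of which came as pairs about 6.9 kb apart. Of the 68 2L peaks with scores from 25 to below 50, 20 (29.4%) belonged to the pairs described here. All pairs of 2L peaks with both scores at least 25, neighbours or not, were sorted by the distance between their midpoints in steps of 0.3 kb. The step from 6.7 to 7.0 kb held 10 pairs, and the other 38 steps between 3.1 and 14.8 kb held 18 in sum, at most 2 in any step and none in 22 of them. Within the 10 pairs the distance ran from 6.794 to 6.967 kb with a median of 6.90 kb, a narrow range that the limits of the step fix. The limits were chosen after the distances had been seen, so the count is a description. It was 11 with scores of at least 20 and 8 with scores of at least 30.

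**Figure D4:**
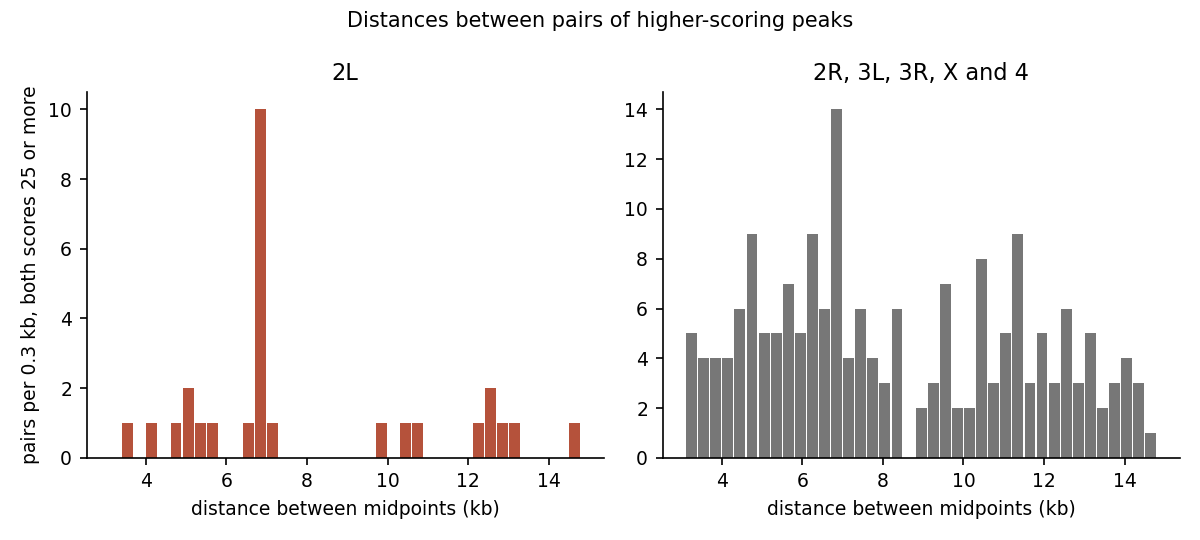
Bars give the number of pairs of peaks, both with a score of at least 25, by the distance between their midpoints in steps of 0.3 kb, on 2L and on the arms 2R, 3L, 3R, X and 4 together. The step from 6.7 to 7.0 kb is the highest in both panels, with 10 pairs on 2L and 14 on the other arms.

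The members of these pairs were also mostly alike in width. The most distal pair was 347952 to 348386 (score 47.3) with 354843 to 355352 (36.6), followed by 1220233 to 1220668 (35.35) with 1227151 to 1227583 (37.9). The other 8 lay beyond 10 Mb. They began at 10156409, 11713613, 12933976, 15446140, 19347605, 20303222, 20576305 and 21347667. At 19347605 to 19348030 the score was 34.8 and its partner at 19354494 to 19354946 had 46.95, whereas at 10156409 to 10156832 it was 32.7 beside 34.4 at 10163288 to 10163737.

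Over the 20 members the scores ran from 27.5 to 47.3, with a median of 36.6, and the widths from 349 to 597 bp, with a median of 436.5 bp. A width of 400 to 500 bp was found in 15 of 20 members. The 48 other 2L peaks with scores from 25 to below 50 had a median width of 821.5 bp, and 6 of them were of that width. Each pair was alone in its surroundings. In 4 cases the chain held only the pair, and in the other 6 it held 1 weak peak more, which lay between the members and scored from 8.75 to 13.3. The nearest peak outside a pair was at least 21.0 kb away. On the other arms the same step was also the fullest, with 14 of 185 pairs and no other step above 9. Per 100 peaks with a score of at least 25, this made 9.62 pairs on 2L and 2.43 on the other arms together, with 2R, 3L, 3R and X each between 2.06 and 2.70. The difference was not tested.

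Sparse stretches took up most of the arm. The median gap between neighbouring peaks was 5850 bp on 2L (382 gaps) and 3134.5 bp on the other arms, and it was 22818 bp when only 2L peaks at or above the median score of the list were kept. Gaps of at most 1 kb made up 31.2% on 2L (Wilson 95% interval 26.7 to 36.0%) and 35.8% elsewhere (34.0 to 37.7%). At the other extreme, 66 gaps above 100 kb, 17.3% of all (13.8 to 21.4%), added up to 17.5 Mb or 78.4% of the stretch between the first and last peak. On the other arms together 11.7% of gaps were that long (10.5 to 13.0%) and took 71.4% of their length. By arm they took 89.1% on 4, 80.7% on X, 78.2% on 3L, 66.5% on 3R and 59.8% on 2R. Their share of gaps was 15.4% on 4, 14.6% on X, 14.1% on 3L, 11.5% on 3R and 8.21% on 2R. The intervals of X (11.6 to 18.1%) and 3L (11.4 to 17.2%) overlap that of 2L.

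**Figure D5:**
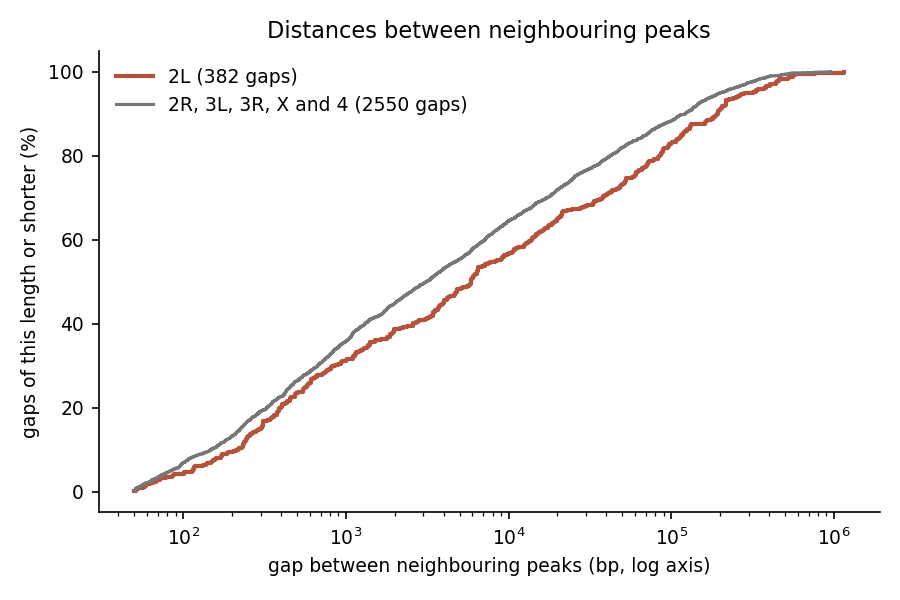
The curves give the percentage of gaps between neighbouring peaks that are as long as the value on the log x axis (bp) or shorter, for 2L (382 gaps) and for 2R, 3L, 3R, X and 4 (2550 gaps). The curve of 2L lies to the right of that of the other arms over most of its length, with medians of 5850 and 3134.5 bp.

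The longest stretch without a peak ran from 17473046 to 18630708 and measured 1158 kb, longer than any on the other arms, where the maximum was 954 kb on X. It was followed by 766 kb after 16612374, 573 kb after 19587573, 562 kb after 595496 and 560 kb after 14021113. Next were 533 kb after 14806994, 521 kb after 7307211, 460 kb after 15453500, 446 kb after 5461755 and 438 kb after 4372129. These 10 made up 6.02 Mb, 26.9% of the length, and 6 of them lay beyond 14 Mb. Strong peaks bordered 3 of the 10, with scores of 59.35 before the gap at 595496, 73.7 before that at 14021113 and 149.7 before that at 5461755. The peaks after these 3 gaps were not strong, with scores of 40.27, 14.3 and 9.27. Peaks of 8.22 and 8.78 bordered others. Every gap has a peak on both sides, and strong peaks were 9.40% of all 2L peaks. Whether strong peaks bordered long gaps more often than this share gives was not tested. Whether reads could be placed in these stretches, and at how many copies the line carries them, was not tested.

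Toward the proximal end, calls became more frequent again. The last 2 Mb before the last peak held 37 peaks, or 18.5 per Mb (13.0 to 25.5), against 7.20 per Mb from 15 to 20 Mb. Their median score was 18.1, and 4 were strong. These were 20770253 to 20770885 (75.65), 21628510 to 21629902 (72.2), 22024349 to 22024847 (78.9) and 22168065 to 22169333 (89.4). Of the 37 peaks, 14 had no other within 10 kb.

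One group in this region was close to evenly spaced over part of its length. Between 21484434 and 21513737 lay 8 narrow peaks, from 201 to 416 bp wide, with scores from 10.3 to 18.1. With the peak at 21499693 set aside, the midpoints of the other 7 stood 3809, 5095.5, 4976, 5071, 5111.5 and 4978 bp apart. Thus 5 of 6 steps were between 4.9 and 5.2 kb, and the first, of 3809 bp, was shorter. The peak set aside was chosen after the spacing had been seen. With all 8 peaks kept, 4 of the steps between neighbours were in this range, at most 2 in a row. By the same measure 1 other step on 2L was in it, and 13 of 2550 on the other arms, never 2 in a row. Peaks covered 8.30% of this cluster, the lowest share of all 17.

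By the 10 kb limit, the last 10 peaks of the arm were 2 single peaks, a chain of 3 and a large cluster of 5. At 22134084 to 22134348 (9.52) and 22148260 to 22149586 (18.5) were 2 peaks with scores below 50. The strong peak 22168065 to 22169333 (89.4) followed, with 22178490 to 22178701 (6.50) and 22179634 to 22179860 (10.3) behind it. The first of these 2 had the lowest score of the arm. After 181 kb without a call, a cluster of 5 peaks at 22360370 to 22366921 ended the arm's calls. Of these, 22363426 to 22364789 and 22365098 to 22366471 were nearly equal, with scores of 33.6 and 34.2 and widths of 1364 and 1374 bp, 308 bp apart. The others in it scored 9.50, 12.1 and 9.52. No arm length was used, so the distance from the last peak to the end of the assembled arm is unknown here. On the separate scaffold 2LHet, which holds heterochromatic sequence assigned to this arm, 3 peaks lay together between 123913 and 125806, with scores of 9.48, 19.05 and 10.0.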

How the data were processed

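Binding of CG8478 was measured by ChIP-seq in 2 ChIP and 2 input libraries, grouped by their titles. A single peak list covering the series was used. Scores were taken unchanged from the list the authors deposited. Which statistic the score is, its threshold and how the inputs served were not stated by any source used. Per the file headers the positions are on FlyBase release 5, and the source column names MACS. The submitters' processing notes name BDGP5 as build and, without roles, MACS2, BWA and CASAVA (1.7.0.3, 1.7.0.2). The list holds no reads, so depth and replicate error could not be computed, and no p-value is given.

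Peaks, gaps (bases between neighbours), chains, windows by midpoint and pairs were computed with pandas 2.3.3, numpy 2.4.6 and scipy 1.17.1 and drawn with matplotlib 3.10.9 (Python 3.11.15). The functions were checked on simulated lists with known chains. No score filter was used. Named peaks followed a rule: the 15 of highest score, those in the first 100 kb, isolated strong sites, the 5 fullest clusters, the 10 longest gaps, the last 10 peaks, and the 5 lowest and widest. Clusters tied at the end of such a list were both named. The members, limits and rules were chosen with earlier results of these data known, and the pairs and the spaced group near the proximal end after their distances were seen.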

Additional observations from a re-analysis of the deposited data

How the results depend on the processing

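Keeping only peaks at or above the median score of the list left 200 peaks on 2L, 26 in the fullest 1 Mb window, 25.1% in the 2 fullest windows together, a median gap of 22818 bp and 14.5% in large clusters, beside a median score of 26.8, a median width of 631 bp and 8.86 peaks per 1 Mb window, with fewer peaks by construction. Merging within 200 bp gave 32.6% in large clusters, and merging within 1000 bp a median gap of 20963 bp. Windows shifted by 500 kb gave 40 peaks in the fullest and 25.6% in the 2 fullest, because the shift leaves out the first 500 kb and splits the window from 8 to 9 Mb. With gaps of at most 5 kb or 20 kb, large clusters held 31.3% or 52.0%. Isolated strong sites numbered 15 at 20 kb and 12 at a score of 30. The share of arm peaks on 2L and the share on the distal side stayed within their counting intervals. The number of pairs 6.7 to 7.0 kb apart moved by less than 1.5 times. The medians of score and width and the mean per window moved by less than 1 SD of single peaks or windows, a wide limit. Under the score filter the median score went from 15.0 to 26.8 and the median width from 427 to 631 bp. The mean per window went from 16.9 to 8.86. The alternatives for the distal side, the 2 fullest windows and the pairs were chosen after seeing the data. No paired analysis was possible because peaks have 1 score for the series, so leaving out replicates was not possible either.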

Other observations

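The list of 2L peaks holds 297 distinct scores, and 137 peaks share their score with at least 1 other peak of the arm. The most common value, 10.3, occurs 5 times.

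The 8 peaks at 21484434 to 21513737 have a median step of 5024.5 bp once the peak at 21499693 is set aside. In the RefSeq gene table of Release 6, the histone genes, which package DNA into nucleosomes, form a tandem array on 2L. The table lists 23 His1, 20 His2A, 23 His2B, 23 His3 and 22 His4 genes, all on 2L, and the median distance between the starts of neighbouring copies is 5045 bp in each class. The table is on another build than the peaks, so whether these peaks lie in the array was not tested, and the lengths are given side by side only. The histone genes were looked up after the spacing of the peaks had been seen.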
